A study of Mus musculus with 172 samples.

Results

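The liver makes most of the proteins of blood clotting, the complement cascade, the serine protease inhibitors called serpins and the acute-phase response. Here 77 such genes were followed among 14107 genes listed in liver. They were chosen by symbol alone, as every Serpin and Itih gene together with named clotting factors, fibrinogen chains, complement components, serum amyloids, orosomucoids, haptoglobin, hemopexin and mannose-binding lectins. By role, 15 belong to complement, 11 are coagulation factors, 9 are acute-phase carriers and 5 are heavy chains of the inter-alpha-trypsin inhibitor. A further 8 are serpins of clotting and fibrinolysis, 17 form a group of clade A serpins and 12 are other serpins. The 17 are the alpha-1-antitrypsin (Serpina1) and antichymotrypsin (Serpina3) genes together with Serpina11 and Serpina12, which were added to them by symbol. In cerebral cortex, 27 of the 77 were listed among 14896 genes.

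Liver and cortex RNA came from adult male mice of 33 BXD/RwwJ lines, which are inbred recombinants of C57BL/6J (B6) and DBA/2J (D2), from both parental strains and from their reciprocal F1 offspring (BD-F1 and DB-F1). Each parent was collected 2 times (B6-1 and B6-2, D2-1 and D2-2). Each collection counts as a line below, so that counts out of 39 lines stand for 37 strains. Sleep-deprived mice (SD) were kept awake by gentle handling for 6 h from light onset and killed at the end, and the undisturbed controls (Ctr) of the same line were killed at the same hour. RNA of the mice of a line and condition was pooled into 1 library, so that 39 pools stood for each condition and the spread among mice of a line was not measured. Per the study's methods, fewer mice were available for BXD79, BXD85 and BXD101 than for the other BXD lines. The pools of 4 BXD/TyJ lines were kept apart.

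In the clotting cascade, proteases activate one another until thrombin turns fibrinogen into fibrin. Complement works in a similar chain and ends in a pore in the target membrane. Serpins stop such proteases by offering a bait loop that the protease cuts and then cannot leave. The acute-phase response is the change in liver secretion that follows inflammation, and interleukin-6, interleukin-1 and glucocorticoids are its known inducers through STAT3, C/EBP factors and NF-kappaB.

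Members of the Serpina1 family, which encode alpha-1-antitrypsins, differ in this bait loop and elsewhere. The 78 coding bases that open with the hinge of the loop are shown because the strain differences below turn on these near-copies. They are coding bases 1081 to 1158 of a coding sequence of 1242 bases, lie in the last of 4 coding exons, and are read from GENCODE on mm9, minus strand. Capitals mark the 17 positions at which the 5 genes are not all alike.
Serpina1a, chr12:105091969-105092046: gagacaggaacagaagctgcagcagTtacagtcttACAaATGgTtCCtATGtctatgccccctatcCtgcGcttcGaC
Serpina1b, chr12:104966536-104966613: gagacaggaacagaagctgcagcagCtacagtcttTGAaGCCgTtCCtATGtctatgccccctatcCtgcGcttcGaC
Serpina1c, chr12:105133306-105133383: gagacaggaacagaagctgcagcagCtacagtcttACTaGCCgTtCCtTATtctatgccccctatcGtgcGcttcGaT
Serpina1d, chr12:105001974-105002051: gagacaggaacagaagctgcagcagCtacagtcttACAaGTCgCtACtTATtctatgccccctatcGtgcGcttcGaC
Serpina1e, chr12:105185312-105185389: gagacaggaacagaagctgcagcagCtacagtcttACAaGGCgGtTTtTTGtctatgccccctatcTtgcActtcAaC
Over the whole coding sequence these 5 genes were between 96.3% and 98.5% identical, and within the loop stretch between 85.9% and 93.6%. Serpina1e and Serpina1a differed at 11 of the 78 bases shown, and Serpina1c and Serpina1d at 5. Of the exonic sequence, 58.5% of the stretches of 100 bases of Serpina1c occurred also in another gene, 32.9% of those of Serpina1a, 26.3% of Serpina1d, 24.6% of Serpina1b and 14.4% of Serpina1e, so that the split of reads among them is uncertain. Cfb (69.0%), C2 (42.5%) and Orm1 and Orm2 (6.95% each) shared sequence with other annotated genes as well.

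The serum amyloid genes Saa1 and Saa2 lie next to each other and are read in opposite directions. Their 250 bases before the RefSeq start (GRCm38.p6) are shown because both genes rose together, with the match to the C/EBP letters TTNNGCAAT in capitals.
Saa1, chr7:46742981-46743230, minus strand: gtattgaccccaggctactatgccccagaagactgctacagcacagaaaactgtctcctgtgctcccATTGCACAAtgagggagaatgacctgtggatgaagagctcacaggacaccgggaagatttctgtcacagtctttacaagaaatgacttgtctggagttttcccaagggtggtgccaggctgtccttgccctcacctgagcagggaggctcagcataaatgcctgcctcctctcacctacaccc
Saa2, chr7:46751583-46751832, plus strand: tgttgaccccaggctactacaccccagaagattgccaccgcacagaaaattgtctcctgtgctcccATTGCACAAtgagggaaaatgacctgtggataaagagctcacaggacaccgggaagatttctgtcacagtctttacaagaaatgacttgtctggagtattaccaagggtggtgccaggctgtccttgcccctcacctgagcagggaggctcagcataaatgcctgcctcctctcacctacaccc
A promoter window of 300 bases was at hand for 60 of the 77 members, in 66 windows. The C/EBP letters, on either strand, occurred in 8 of these 66 windows (12.1%), of C9, Saa1, Saa2, Serpina1a, Serpina7 and Serpinb2, against 2.18% of 32851 windows of all genes. The STAT letters TTCNNNGAA occurred in 14 member windows (21.2%) against 8.30% of all, among them those of Fga and Fgb. A pair of heat shock units, GAANNTTC or TTCNNGAA, was held by 11 member windows (16.7%) against 15.1% of all, and not by that of Serpinh1. These are matches of letters and not mapped binding sites.

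Library totals in liver ranged from 5034166 to 8269401 reads in Ctr (median 6752508) and from 4681101 to 8009362 in SD (median 6563242), and in cortex from 18995492 to 28998853 over both conditions. Markers fitted the tissue: all 8 hepatocyte genes looked at were listed. Their summed levels were 3935 to 6583 CPM (reads scaled to a common library size) in Ctr and 4219 to 5783 CPM in SD. Between conditions 0 of 8 passed the test. These 8 had from 0.90 (Apob) to 1.78 (Alb) reads per exonic base, a density at which most values were compressed, as described below. The test can therefore say little about hepatocyte content. The SD pool of BXD70 stood apart for several members, with the lowest F5, Hc and Itih5 of all SD pools. It also had the highest F2, Fga, Fgb, Fgg, Hp and Hpx of all SD pools. The log2 library total of BXD70 changed by -0.38 from Ctr to SD, the largest fall among the 39 pairs.

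The most abundant members had compressed values. Reads per exonic base reached 1.61 for C3, the hub of complement, 1.48 for Hpx, the heme carrier hemopexin, 1.36 for Itih4, 1.35 for Fgb and 1.21 for Fgg, which encode fibrinogen chains, and 1.28 for Orm1. Alb, the gene of serum albumin and no member, had 1.78. The members were split at 0.5 reads per base into 47 dense and 30 sparser ones, so that the narrow span of density among the former, 3.14-fold while mean reads spanned 20.4-fold, follows in part from the split. Among the other 30, density spanned 532-fold. Of the 107 genes in liver with more than 1 read per base, 15 were members.

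Where reads are proportional to depth, the slope of log2 reads on log2 library total over 78 libraries is near 1. This slope was 0.09 for Hpx, Fgb and Fgg, 0.11 for Hp, 0.14 for Orm1, 0.17 for Serpinc1, 0.23 for C3 and 0.24 for Itih4. Its median was 0.29 over the 47 dense members (36 of them under 0.5) and 0.76 over the other 30, against 0.37 over all 853 genes of at least 0.5 reads per base and 1.22 over 8128 sparser genes with a mean of 100 reads or more. Reads of most dense members thus moved less than the total. The limit of 100 reads was not applied to the 30 sparser members, whose mean reads ran from 2.03 to 1862. In 11 of the 47 the slope was 0.5 or more, up to 1.17 for F5, with 0.80 for F11 and Hc.

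**Figure D1:**
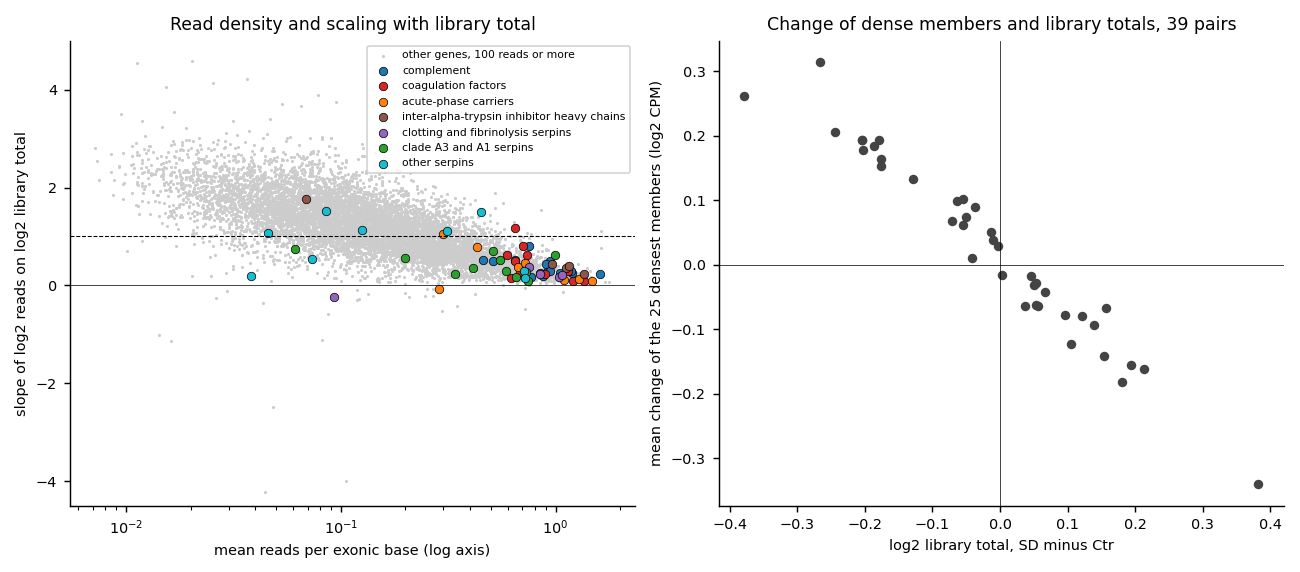
Left, each point is a gene, with mean reads per exonic base on a log axis and the slope of log2 reads on log2 library total over 78 liver libraries, members colored by role and the dashed line at a slope of 1. Right, each point is 1 of 39 pairs of pools, with the change of the library total and the mean change of the 25 members of at least 0.8 reads per base, which run from 0.31 in D2-2 to -0.34 in DB-F1 along a falling line.

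The same was visible within lines. The mean change of the 25 members of at least 0.8 reads per base, SD minus Ctr, ran from -0.34 log2 CPM in DB-F1 to 0.31 in D2-2. It correlated with the change of the library total at a Pearson r of -0.98 and a Spearman rho of -0.98 over 39 pairs (permutation p = 1e-05 for each, the smallest that 100000 resamples can give), and at -0.98 without the 2 pairs farthest from the median. The fitted slope was -0.88 log2 CPM per log2 unit of the total. As CPM has the library size as its divisor, reads that do not follow the total give such a relation by themselves. The correlation therefore restates the slopes above, and its p adds no separate support to them. Totals themselves changed by -0.02 ± 0.16 (mean ± SD, n = 39) on the log2 scale and were lower in SD in 21 of 39 pairs. The liver response and the line differences were therefore also run with the log2 library total as a covariate, an alternative chosen after seeing the data.

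After sleep deprivation, 12 of the 77 members rose in liver and 3 fell, and the other 62 did not pass the test (limma, adjusted p under 0.05 over all genes listed). Of all 14107 genes, 21.5% rose and 22.6% fell by the same rule, so that a smaller share of members than of genes at large was called. Dense genes were called less often in general. Of the 47 dense members 7 rose and 0 fell, beside 96 and 67 of all 853 genes of at least 0.5 reads per base. Of the 30 others 5 rose and 3 fell, beside 2222 and 2000 of 8128 sparser genes with a mean of 100 reads or more. The median log2 fold change of the members was 0.03, against -0.00152 over all genes. All 15 called members held with the line as a replicate block, which called 24 members (20 up and 4 down) against 53.9% of all genes. With the library total as a covariate 25 members were called, against 48.8% of all genes.

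**Figure D2:**
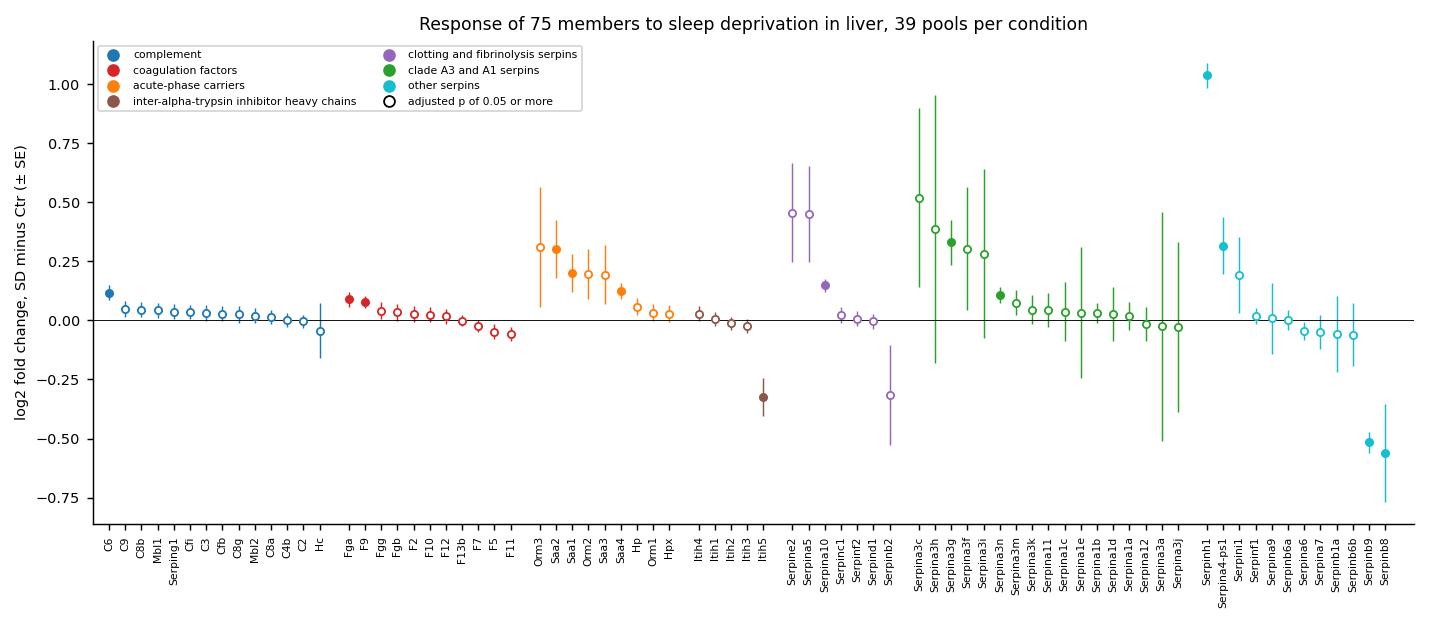
Log2 fold change of 75 members in liver, SD minus Ctr, with its standard error from limma over 39 pools per condition, ordered within role, and filled where the adjusted p was under 0.05. Serpinh1 at 1.04 stands above the rest, and Serpinb8 at -0.56 and Serpinb9 at -0.52 below, while complement, clotting factors and most Itih genes lie close to 0.

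Serpinh1 (chr7:106493885-106501740, here and below on mm9) showed the largest rise among the members. It encodes HSP47, a chaperone of the endoplasmic reticulum that binds procollagen, inhibits no protease and is inducible by heat shock. It ranged from 4.51 to 5.32 log2 CPM in Ctr (median 4.91) and from 5.47 to 6.46 in SD (median 5.96), so that the groups did not overlap. It rose in 39 of 39 lines, by 0.28 in BXD50 to 1.53 in BXD48, and the fold change was 1.04 ± 0.05 (log2, SE), or 2.05-fold (limma, adjusted p = 4.69e-29). In cortex it rose as well, in 39 of 39 lines, from 3.69 ± 0.25 to 4.47 ± 0.25 log2 CPM (SD, n = 39), and the liver response was larger by 0.26 ± 0.05 (SE, limma, adjusted p = 2.3e-05). Its levels differed little among strains, with an SD of 0.19 over 37 strain means and an adjusted p of 0.0738 for line differences in limma. Of the markers of stellate cells and fibroblasts, which make procollagen, 0 of 7 rose and 1 fell, and of 6 endothelial markers 3 rose and 1 fell; their part in the result was not tested.

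Among the serpins of clotting and fibrinolysis, 2 of 8 rose. Serpina10 encodes the protein Z-dependent inhibitor of activated factor X. It rose by 0.15 ± 0.03 (SE, limma, adjusted p = 1.3e-05), in 33 of 39 lines, from a median of 7.42 to one of 7.56 log2 CPM. Serpine2 (chr1:79790772-79855271), protease nexin 1, an inhibitor of thrombin, ran from 3.60 to 6.50 log2 CPM in Ctr and from 3.45 to 7.26 in SD. The groups overlapped widely, yet 37 of 39 lines were higher in SD, with a fold change of 0.46 ± 0.21 that missed the threshold without the line block (limma, adjusted p = 0.0687) and passed with it (SE 0.06, adjusted p = 5.16e-09). Serpina5, the protein C inhibitor, had a like estimate of 0.45 ± 0.21 (limma, adjusted p = 0.0671, and 0.012 with the block), but was higher in only 24 of 39 lines. Antithrombin (Serpinc1, 0.02), heparin cofactor II (Serpind1, -0.00) and antiplasmin (Serpinf2, 0.01), all dense genes, had fold changes close to 0.

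**Figure D3:**
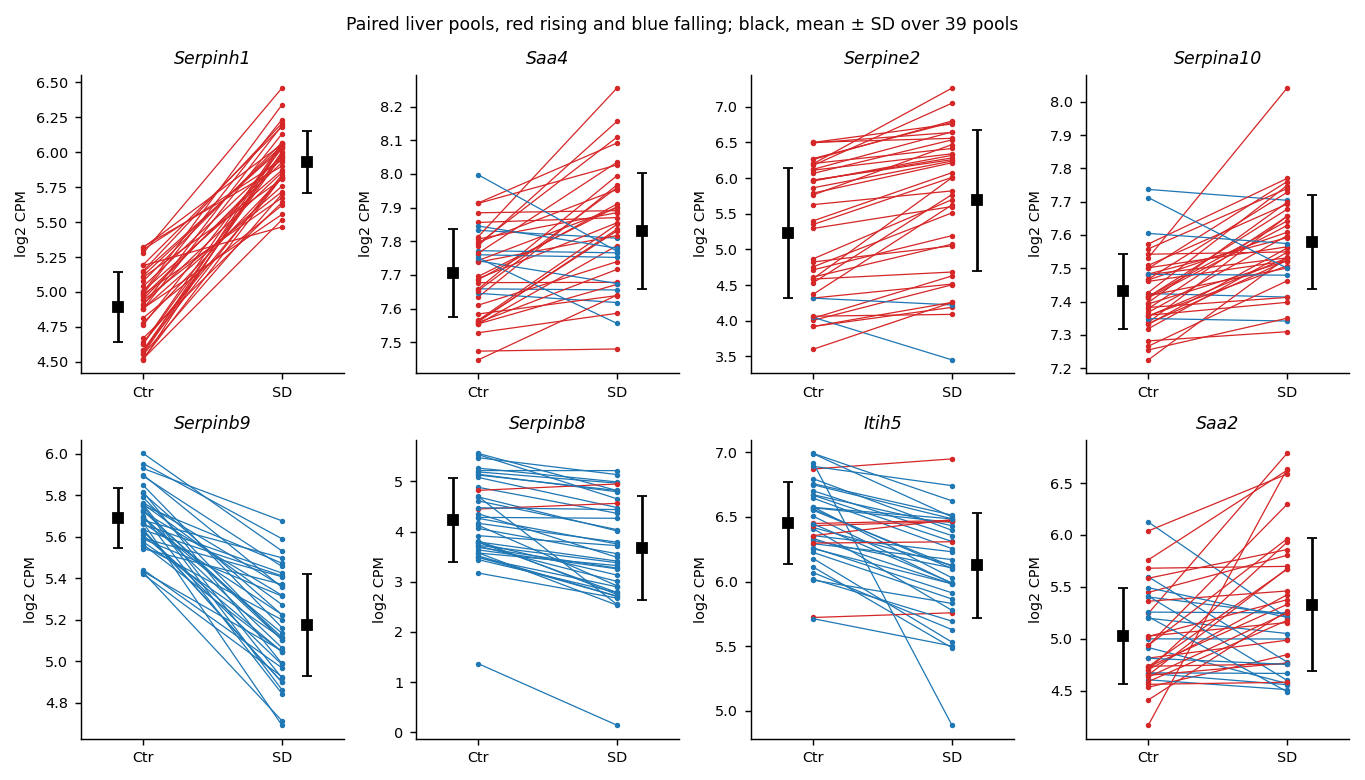
Levels (log2 CPM) of 8 members in the 39 pairs of liver pools, a line joining the Ctr and SD pool of a line, red where SD was higher and blue where it was lower, with black squares and bars for mean ± SD. Serpinh1 rises and Serpinb9 falls in 39 of 39 pairs, Serpine2 rises in 37 from very different starting levels, and Saa2 rises in 25.

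The 3 members that fell are not clotting or complement genes. Serpinb9 (chr13:33095119-33109826), a cytosolic inhibitor of granzyme B, ranged from 5.42 to 6.00 log2 CPM in Ctr (median 5.69) and from 4.69 to 5.68 in SD (median 5.14), and fell in 39 of 39 lines, by 0.17 in BXD71 to 0.98 in BD-F1. The groups overlapped between 5.42 and 5.68. Its fold change was -0.52 ± 0.05 (log2, SE, limma, adjusted p = 1.04e-16). B cell markers moved with it: 6 of 6 fell in SD, with a median of -1.27, and their summed level went from 7.33 to 29.8 CPM in Ctr down to 3.06 to 14.9 CPM in SD. Of the neutrophil markers, the 2 listed of 8 looked at, S100a8 and S100a9, fell too. Their part in the result was not tested, and fewer cells of a type cannot be told apart from less RNA per cell in these bulk samples.

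Serpinb8 (chr1:109486583-109505486), a cytosolic inhibitor of furin, went from a median of 4.16 log2 CPM in Ctr (1.37 to 5.56) to 3.56 in SD (0.14 to 5.21), and fell in 37 of 39 lines. The fold change was -0.56 ± 0.21 (SE, limma, adjusted p = 0.0213), and -0.56 ± 0.07 with the line block (adjusted p = 9.44e-10). In cortex it did the opposite and rose in 39 of 39 lines, by 0.83 ± 0.09, and the tissues differed by -1.39 ± 0.08 (liver minus cortex, SE, limma, adjusted p = 7.49e-19). Itih5 (chr2:10075198-10178156), a heavy chain that differs from the other 4 in being sparse here (0.07 reads per base), fell by 0.33 on the log2 scale (SE 0.08, limma, adjusted p = 0.000481), in 33 of 39 lines, from a median of 6.45 log2 CPM (5.71 to 6.99) to 6.13 (4.89 to 6.95). The drop was deepest in BXD70, at -2.03. Itih1, Itih2 and Itih3, heavy chains that are transferred to hyaluronan, and Itih4 had estimates between -0.02 and 0.03 and did not pass the test.

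Of the 9 acute-phase carriers 3 rose, all of them serum amyloids. Saa4, the constitutive form, rose by 0.13 ± 0.03 (SE, limma, adjusted p = 0.00157), in 30 of 39 lines. Saa1 ranged from 5.24 to 6.55 log2 CPM in Ctr (median 5.78) and from 5.24 to 6.75 in SD (median 5.89), and rose in 29 of 39 lines, by 0.20 ± 0.08 (SE, limma, adjusted p = 0.0325). Saa2 ranged from 4.17 to 6.12 (median 4.94) and from 4.49 to 6.78 (median 5.24), and rose in 25 of 39, by 0.30 ± 0.12 (SE, limma, adjusted p = 0.0395). The last 2 calls were close to the threshold. Leaving out 1 line at a time, that of Saa1 was lost in 4 of 39 cases (without BXD49, BXD70, BXD73 or BXD83, highest adjusted p = 0.0596) and that of Saa2 in 12 (without B6-1, B6-2, BXD49, BXD51, BXD66, BXD70, BXD73, BXD83, BXD85, D2-1, D2-2 or DB-F1, highest adjusted p = 0.0916). In the 33 BXD/RwwJ lines alone, the fold change of Saa2 was 0.19 (adjusted p = 0.253) and that of Saa1 0.18 (adjusted p = 0.0808). Neither was called when the pools of each parent were averaged within a condition. Without BXD79, BXD85 and BXD101, the lines with fewer mice, Saa2 was not called.

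Single pools reached far higher. The SD pool of B6-2 had the highest SD value of Saa1 (6.75), Saa2 (6.78), Saa3 (6.44) and Orm2 (6.84), and its Saa3 was 2.995 log2 units above the Ctr pool of that collection. In BXD83 Saa2 changed by 2.46. BXD43, in contrast, had the highest Saa1, Saa2 and Orm2 of all Ctr pools, and its Saa2 changed by -0.92. Saa3, Orm1, Orm2 and Orm3 had estimates of 0.19, 0.03, 0.20 and 0.31 and did not pass the test, though Orm2 and Orm3 did so with the line block (limma, adjusted p = 0.0363 and 0.0112). Hp, the hemoglobin scavenger haptoglobin, had 0.06 ± 0.04 (SE, adjusted p = 0.194) and Hpx 0.03 ± 0.04 (adjusted p = 0.575). Hp passed with the library total as a covariate, at 0.04 (limma, adjusted p = 7.73e-06).

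Of 11 coagulation factors 2 rose and 0 fell. Fga, the fibrinogen alpha chain, and F9 rose by 0.09 ± 0.03 (limma, adjusted p = 0.0176) and 0.08 ± 0.03 (adjusted p = 0.00735), in 26 and 32 of 39 lines. Fga went from a median of 8.55 to 8.66 log2 CPM. The other fibrinogen chains, Fgb at 0.03 ± 0.04 and Fgg at 0.04 ± 0.04, did not pass (limma, adjusted p = 0.474 and 0.377), and F2, the gene of prothrombin, had 0.03 ± 0.03 (adjusted p = 0.542). With the library total as a covariate Fgb and Fgg passed, at estimates of 0.02 each, and F11, which had -0.06, passed as well (adjusted p = 0.0119, 0.000129 and 0.0335). Over the 11 factors the fold changes lay between -0.06 and 0.09, and over the 15 complement genes between -0.04 and 0.12.

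In complement 1 of 15 members rose. C6, a component of the membrane attack complex, went from a median of 8.57 log2 CPM in Ctr (8.13 to 8.84) to 8.65 in SD (8.44 to 8.97), with a fold change of 0.12 ± 0.03 (SE, limma, adjusted p = 0.0017), in 31 of 39 lines. C3 had 0.03 ± 0.03 (adjusted p = 0.487), and Hc, the gene of C5, -0.04 ± 0.12 (adjusted p = 0.795). The large error of Hc came with its spread among lines, described below.

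Of the 17 serpins grouped as alpha-1-antitrypsin and antichymotrypsin genes with Serpina11 and Serpina12, 2 rose, and 6 with the line block. Over all 14107 genes 3036 rose, and 3672 with the block. Serpina11 and Serpina12 passed in neither fit. The block added Serpina3c (0.52 ± 0.13, adjusted p = 0.00105), Serpina3f (0.30 ± 0.08, adjusted p = 0.00198), Serpina3h (0.39 ± 0.10, adjusted p = 0.00153, higher in 32 of 39 lines) and Serpina3m (0.08 ± 0.03, adjusted p = 0.0131), each with the SE of the blocked limma fit. Serpina3n, the mouse antichymotrypsin that is itself an acute-phase protein, rose by 0.11 ± 0.03 (SE, limma, adjusted p = 0.00746), in 29 of 39 lines. Serpina3g, an inhibitor of cathepsins in immune cells, went from a median of 4.12 log2 CPM (3.44 to 5.28) to 4.50 (3.82 to 5.69), a rise of 0.33 ± 0.10 (SE, limma, adjusted p = 0.00283), in 29 of 39. Serpina1a to Serpina1e had estimates between 0.02 and 0.04 and none passed. Serpina4-ps1, a pseudogene of the same cluster, rose by 0.32 ± 0.12 (SE, limma, adjusted p = 0.0248), in 28 of 39, and was not called in the 33 BXD/RwwJ lines alone (0.31, adjusted p = 0.0617).

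The genes around this response were looked at as lists, which were chosen with earlier results of these data known. Beside their counts stand 21.5% of all liver genes that rose and 22.6% that fell. Of 17 regulators of the acute-phase response 14 rose and 0 fell, with a median of 0.18: Cebpd rose by 1.02 ± 0.10, Il1r1 by 0.78 ± 0.07, Il6ra by 0.65 ± 0.07 and Cebpb by 0.34 ± 0.06, while Socs3, a target of STAT3, had 0.04 ± 0.15 (limma, adjusted p = 0.837). Of 16 other acute-phase products 7 rose and 0 fell, led by the metallothioneins Mt2 (1.40 ± 0.23) and Mt1 (0.81 ± 0.14) and with Lcn2 at 0.63 ± 0.23 and Lbp at 0.35 ± 0.04. Of 23 other genes of clotting and fibrinolysis 2 rose, Thbd (0.32) and Mcfd2 (0.07), and 1 fell, F3 (-0.16). Of 26 other complement genes listed, C5ar1 rose by 0.81 ± 0.13 and Masp1 fell by 0.35 (SE 0.05), in 39 of 39 lines. Of the 23 genes in these 4 lists with at least 0.5 reads per base, 2 rose, Crp by 0.13 ± 0.03 and Hnf4a by 0.09 ± 0.02, and the others lay between -0.08 and 0.07.

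In cortex, 6 of the 27 members listed rose and 9 fell, against 33.0% and 35.4% of all genes. Serpinb8 and Serpinh1 rose as described, and Hpx rose by 0.39 ± 0.11 from a level of -1.24 ± 0.48 log2 CPM (SD, n = 39). The falls were led by Serpinb1a, an inhibitor of neutrophil elastase (-0.63 ± 0.08), F12, the contact factor of clotting (-0.60 ± 0.09), and C8g (-0.53 ± 0.09). The response differed between tissues in 14 of 27 members, against 57.6% of 12695 genes. F12 differed by 0.61 ± 0.08, Serpinb1a by 0.57 ± 0.09, C8g by 0.55 ± 0.09 and Serpine2 by 0.40 ± 0.06 (liver minus cortex, SE), where the liver values of F12 (0.02), Serpinb1a (-0.06) and C8g (0.03) were close to 0. F12 and C8g are dense genes in liver, with 1.14 and 0.77 reads per base.

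More members differed among strains than between conditions. Line differences over 37 strains passed in 69 of 77 members (limma F test, adjusted p under 0.05), against 62.1% of all genes, but this count depended on the library totals. With the total as a covariate 45 members passed, against 47.4% of all genes, and the 24 that were lost included C3, F2, Fga, Fgb, Fgg, Hp, Hpx, Orm1, Itih4 and Serpina3n. Of the 47 dense members 46 passed without and 23 with the covariate, and of the 30 others 23 and 22. The lowest Ctr value of C3, F2, Fga, Fgb, Fgg, Hp, Hpx, Itih4, Serpinc1 and Serpina3n was that of BXD73b and the highest that of DB-F1 in each case.

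The widest strain differences lay in 1 cluster. On chromosome 12, 22 Serpin members share 797655 bases (chr12:104854885-105652539 on mm9), of which 21 passed the test for line differences. Between the parents, over 4 pools each, 20 of 77 members differed (12 higher in D2, 8 higher in B6), against 17.9% of all genes, and 13 of these 20 lay in the cluster. Of them 8 were higher in D2 and 5 in B6, sometimes next to each other. With Ctr pools only, 22 members were called, 10 higher in D2 and 12 in B6, against 1583 of 14107 genes. From Ctr to SD the log2 library total changed by 0.15 and 0.14 in B6-1 and B6-2. It changed by -0.18 and -0.27 in D2-1 and D2-2. The parental comparison was not run with the library total, so the part of these shifts in it was not tested.

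Serpina1e is the clearest case. It had 7.60 and 7.68 log2 CPM in the Ctr pools of B6 and 5.10 and 4.69 in those of D2, a difference of -2.59 ± 0.11 over both conditions (D2 minus B6, SE, limma, adjusted p = 1.76e-09). Of the 33 BXD lines, 16 had values of 5.87 or lower in Ctr and 17 had 7.30 or higher, with none between. Both F1 pools sat with B6, at 7.53 and 7.98. Serpina1c (-0.93 ± 0.09) and Serpina1d (-0.81 ± 0.09) differed the same way, Serpina1a less so (-0.29 ± 0.08), and Serpina1b did not pass (-0.02 ± 0.08, adjusted p = 0.879). With Ctr pools only, Serpina1b was called as well. The values of these 5 genes share reads to the extent given with the sequences above.

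In the antichymotrypsin genes, whose loops are known to have diverged in the mouse, the direction was mostly the reverse. Serpina3h had -0.44 and -0.72 log2 CPM in the Ctr pools of B6 and 4.06 and 4.49 in those of D2, and the difference was 4.90 ± 0.25 (limma, adjusted p = 1.21e-08). It is annotated as a processed transcript, and no value of shared sequence was computed for it. Reads of all strains were aligned to mm9, and whether the alignment differed between B6 and D2 alleles was not tested. Among the BXD lines 17 had 0.44 or less and 16 had 3.71 or more. Serpina3a differed by 5.13 ± 0.43, Serpina3i by 3.07 ± 0.66, Serpina3j by 2.94 ± 0.48 and Serpina3c by 1.48 ± 0.26, all higher in D2, whereas Serpina3f was lower in D2 (-2.04 ± 0.29). Several of these values rest on few reads: a gene without reads is listed at -2.77 in Ctr, and 1 of the B6 Ctr pools had that value for Serpina3a, Serpina3i and Serpina3j.

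**Figure D4:**
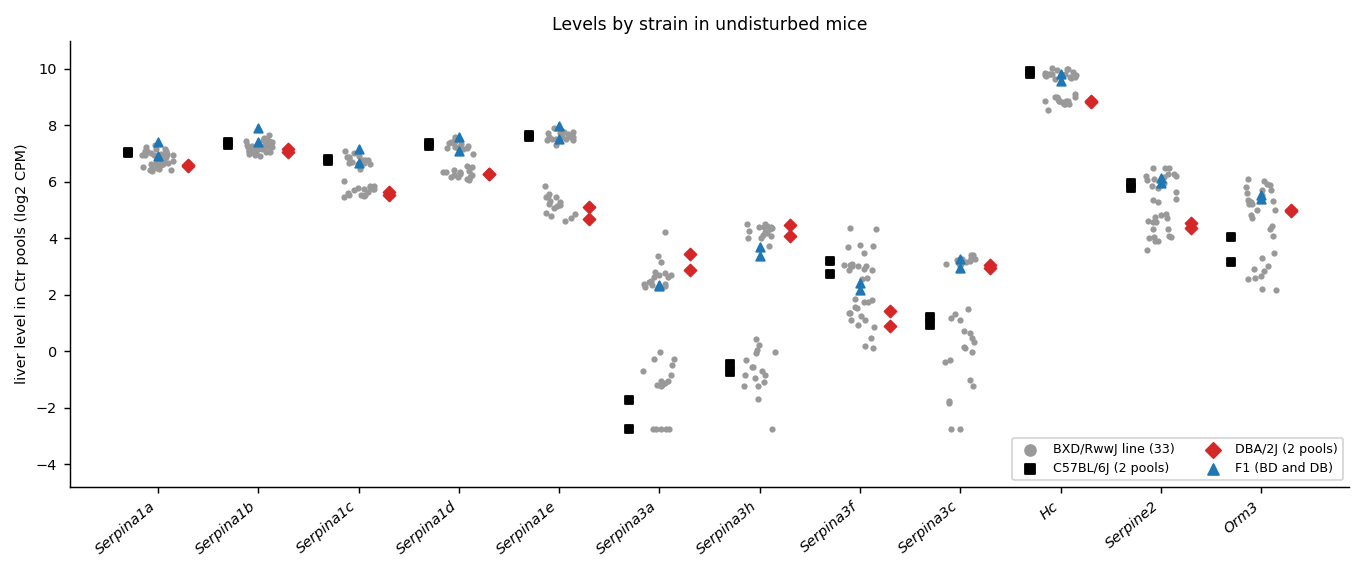
Liver levels (log2 CPM) in Ctr pools of 12 members, with gray points for 33 BXD/RwwJ lines, black squares for 2 pools of C57BL/6J, red diamonds for 2 pools of DBA/2J and blue triangles for the F1 pools. Serpina1e, Serpina3h and Hc fall into separate bands around the parents, Serpina1b into 1 band, and -2.77 is the value without reads.

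Lines mostly kept to the same parent across the cluster. Each of the 33 lines was assigned, as a description, to the parent whose Ctr value was nearer. For 7 of the 13 cluster members that differed between the parents (Serpina1c, Serpina1d, Serpina1e, Serpina3a, Serpina3f, Serpina3h and Serpina3i) this assignment was the same in all 33 lines. Serpina11 matched that of Serpina1e in 32 lines, Serpina1a, Serpina3c, Serpina3j and Serpina5 in 31, and Serpina12 in 23. In SD pools the nearer parent was the same as in Ctr in 32 of 33 lines for Serpina1e and 33 of 33 for Serpina3h. It was the same in 31 lines for Serpina11 and Serpina12, in 30 for Serpina1a and in only 18 for Serpina5.

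Outside the cluster, Hc (chr2:34838851-34916958) also fell into bands. DBA/2J is a strain long known to lack C5 protein. Hc had 9.81 and 9.92 log2 CPM in the Ctr pools of B6 and 8.84 and 8.85 in those of D2, and differed by -0.96 ± 0.06 (limma, adjusted p = 1.63e-07). Of the BXD lines 15 had 9.10 or less and 18 had 9.63 or more, and the nearer parent was the same in SD in 33 of 33. Hc is itself a dense gene, with 0.755 reads per base. Between Hc and Serpina1e the nearer parent was the same in 20 of 33 lines.

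Serpine2 (-0.99 ± 0.14) and Serpinb8 (1.66 ± 0.18), which responded to sleep deprivation as described, differed between the parents too, and so did Orm3 (1.12 ± 0.27), Serpina5 (2.01 ± 0.34) and Itih5 (-0.34 ± 0.10). Largest by the spread of 37 strain means were Serpina3h (SD 2.55), Serpina3a (2.12), Serpina3c (1.69), Serpina3j (1.53), Serpina3i (1.51) and Serpina1e (1.25). Coagulation factors spread by 0.08 to 0.14. The smallest of the 20 differences rested on single pools. Without the Ctr or the SD pool of B6-1, the SD pool of B6-2, either pool of D2-1 or the SD pool of D2-2, F11 (0.23 ± 0.07) was not called, and Saa4 (0.28 ± 0.07) was not called without the SD pool of B6-1, D2-1 or D2-2. Itih5 was lost without any of the 4 pools of B6-1 and D2-1, and Serpina1a without any of the 4 parental Ctr pools.

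Among undisturbed strains 3 of 14 acute-phase members followed Saa1. Over 37 strains, with the parental pools averaged, Saa1 correlated with Saa2 (r = 0.81, rho = 0.80, permutation p = 1e-05 for each, adjusted p = 7e-05 over 14 relations) and with Orm2 (r = 0.79, rho = 0.78, permutation p = 1e-05 for each, adjusted p = 7e-05). Without BXD43 and BXD85, which lay farthest from the median of Saa1, r was 0.76 and 0.75. Saa4 followed at r = 0.46 and rho = 0.47 (permutation p = 0.00459 and 0.00385, adjusted p = 0.0214 and 0.018), and had r = 0.41 without those strains, where it no longer passed the adjustment (adjusted p = 0.0665). For the other 11, r lay between 0.25 and 0.38 and none passed. Fga, Fgb, Fgg, Hp, Hpx, Orm1 and Itih4, all dense genes, were among these, and so were the sparser Saa3 (0.18 reads per base) and Orm3 (0.29). Saa1 itself (0.67) and Saa4 (0.72) are dense as well.

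**Figure D5:**
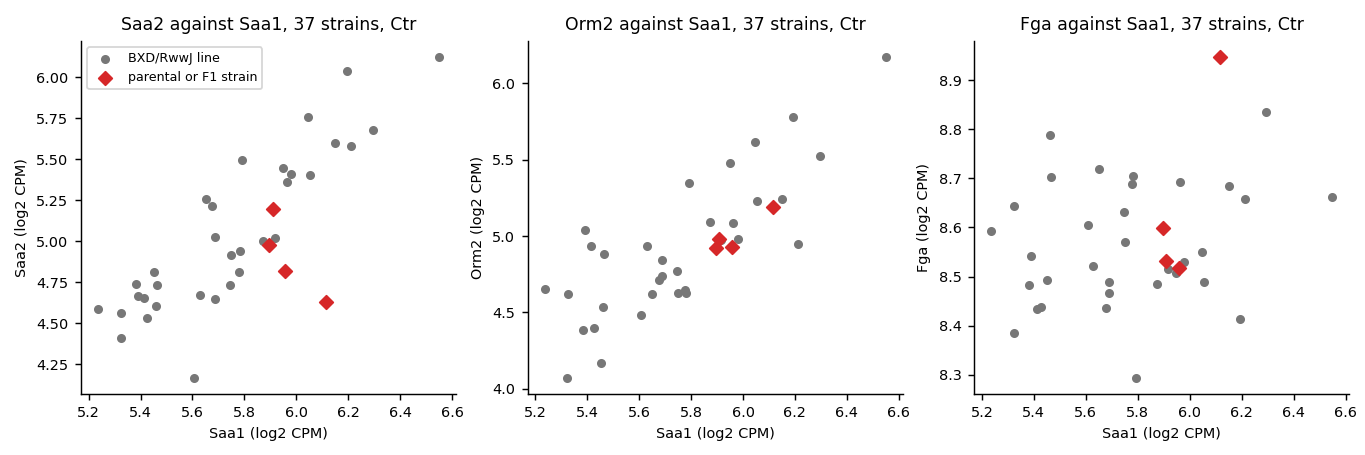
Levels (log2 CPM) of Saa2, Orm2 and Fga against Saa1 in Ctr liver of 37 strains, gray for BXD/RwwJ lines and red for parental and F1 strains. Saa2 and Orm2 climb with Saa1 (r = 0.81 and 0.79) and Fga does little (r = 0.27).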

How the data were processed

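Total RNA of liver and cerebral cortex was sequenced in 172 libraries, each of RNA pooled from the mice of 1 line and condition. Of these, 156 entered the main comparisons. Per the labels and the study's methods, the authors checked reads with FastQC, aligned them to mm9 with STAR, counted them strand by strand on RefSeq genes with HTSeq, removed genes with low counts and normalized with the trimmed mean of M values in edgeR. The deposited values are log2 CPM per gene and library. The versions of STAR, HTSeq and edgeR, and whether duplicate reads were removed, are not given in the sources used here. Whole reads could be recovered from 100% of the values within a tolerance of 0.02.

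All tests ran over all genes listed in a tissue, in R 4.3.3 with limma 3.58.1 on the deposited log2 CPM with a variance trend, with Benjamini-Hochberg adjustment and calls at an adjusted p of 0.05. SD was compared with Ctr over 39 pools each without a block. Line differences were tested by an F test over 37 strains with the condition as a covariate, parents over 4 pools each, and tissues on the change in liver minus that in cortex of each line. The study's methods used voom, which was run as an alternative on the recovered reads. Permutation tests were two-sided with 100000 resamples in Python 3.11.15. Reads per exonic base used the mm9 annotation, and the limits of 0.5 and 0.8 were chosen after seeing the data. The fits were tested on simulated data.

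Ctr and SD pools of a line come from mice of the same inbred line, and their deviations from the group means correlated at 0.17 or more in each of 39 lines in liver (median 0.48, against -0.02 between different lines) and at 0.30 or more in cortex (median 0.61), so the line number pairs the samples. The p-values of the SD comparisons measure the spread among pools of different lines, and those of the parents the spread among 4 pools a strain. Those of the line differences measure what is left after strain and condition. For a strain with 1 Ctr and 1 SD pool, this includes how far its own response departs from the mean response. Named members were the called ones with the largest rises and falls, the defining gene of each group, those with the largest spread among strains, the largest parental difference or the most reads per base, and those called in opposite directions in both tissues, and others were named after their values were seen. The members and lists were chosen with earlier results of these data known. For 2 members no values are reported here, and they are counted in the totals.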

Additional observations from a re-analysis of the deposited data

Results flagged for a closer look

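For 14 of the 27 members listed in both tissues, the response to sleep deprivation in liver differed from that in cortex, by a test of the difference itself over the paired changes of 39 lines (limma, values as log2 change in liver minus that in cortex ± SE). Serpinb8 differed most, at -1.39 ± 0.08 (adjusted p = 7.49e-19), and was the 1 member called in both tissues in opposite directions. Serpinb9 followed at -0.44 ± 0.04, Hpx at -0.36 ± 0.09, Itih5 at -0.15 ± 0.06 (adjusted p = 0.0281) and Serpinb6a at -0.12 ± 0.04. Positive differences were found for F12 (0.61 ± 0.08), Serpinb1a (0.57 ± 0.09), C8g (0.55 ± 0.09), Serpine2 (0.40 ± 0.06) and Serpinh1 (0.26 ± 0.05). They were smaller for Serping1 (0.17 ± 0.04), Itih3 (0.12 ± 0.04) and Serpinf1 (0.087 ± 0.037, adjusted p = 0.0410). Of these, F12, C8g and Hpx are dense in liver, where values were compressed, and low in cortex, at -0.02, -0.61 and -1.24 log2 CPM in Ctr.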

How the results depend on the processing

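The main count of 15 members called in liver became 24 with the line as a replicate block, 24 by voom with the replicate block, 25 with the log2 library total as a covariate and 38 with that covariate and the replicate block, against 53.9%, 54.8%, 48.8% and 57.3% of all genes. The last 2 settings, and leaving out 1 line at a time, which gave 13 to 16 members, were chosen after seeing the data. The block gained F11, Orm2, Orm3, Serpina3c, Serpina3f, Serpina3h, Serpina3m, Serpina5 and Serpine2. Without the block, 10 in place of 14 members differed between tissues, against 47.8% of all genes. The line differences fell from 69 to 45 members with the library total as a covariate. Of the 14 relations with Saa1, 3 passed by r and by rho in the main setting, 12 by r and 3 by rho with median-centred libraries, 12 by r and 10 by rho in SD pools, and 2 by each in the 33 BXD/RwwJ lines, where Saa4 did not (adjusted p = 0.0573 for r). The cause was not tested. The parental comparison called 18 to 25 members when 1 pool was left out, and 20 with the collection as a block, although the 2 collections did not pair (r = -0.00892). In Ctr pools only, it called 1583 of all genes in place of 2524, and 22 members (10 higher in D2 and 12 in B6). For 40 named members, a subset that leaves out most of those gained above, there were 1779 values under an alternative, of which 1712 kept direction and side of the threshold, 58 lost the threshold, 9 gained it and 0 reversed. Depth limits the low members: 3 had a mean under 10 reads, and pooling leaves the spread among mice unmeasured.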

Other observations

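The pools of 4 BXD/TyJ lines entered no main comparison. In liver Serpinh1 was higher in SD than in Ctr in all 4, with 4.25 and 5.51 log2 CPM in BXD05, 5.46 and 6.11 in BXD29, 5.27 and 6.07 in BXD29t, and 4.48 and 5.88 in BXD32. Serpinb9 was lower in all 4, with Ctr values of 5.71 to 6.12 and SD values of 4.62 to 5.59. In Ctr, Serpina1e stood at 7.66 in BXD05, 7.61 in BXD29 and 7.24 in BXD29t and at 5.06 in BXD32, while Serpina3h stood at -0.69, -0.79 and -1.07 and at 4.03 in the same order. Hc was 8.51 in BXD05, 9.002 in BXD32, 9.57 in BXD29t and 9.83 in BXD29.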
